A study of Mus musculus with 3 samples.

Results

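Genes that are mutated in familial amyotrophic lateral sclerosis (ALS), apart from the one that the model carries, were examined in lumbar spinal cord nuclei of SOD1G93A mice. The mouse orthologs taken by symbol were Tardbp, Optn, Tbk1, Vcp, Sqstm1, Nek1, Kif5a and Atxn2, which are 8 of the 31040 genes in the count table. All 8 were found. The rule used their link to human disease and no measured value, although earlier results of these data were known when it was set.

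ALS is a fatal loss of motor neurons, and most of these genes act in 1 of 3 linked processes. TDP-43, the product of Tardbp, and ataxin-2, the product of Atxn2, bind RNA, and TDP-43 leaves the nucleus and aggregates in motor neurons of most patients, although rarely in carriers of SOD1 mutations. Optineurin (Optn), p62 (Sqstm1), the kinase TBK1 (Tbk1) and the segregase VCP (Vcp) serve the clearance of ubiquitinated cargo by autophagy and by the proteasome, with TBK1 phosphorylating both optineurin and p62. KIF5A (Kif5a) is a heavy chain of kinesin-1, the motor that carries cargo along axons, and NEK1 (Nek1) is a kinase of the DNA damage response and of primary cilia. Intermediate-length repeats in ATXN2 raise the risk of ALS, whereas the other genes carry mutations of other kinds.

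Single-nucleus RNA sequencing had been applied to the lumbar cord of 12 mice at an age of 90 days. Of these, 6 carried a high-copy mutant human SOD1 transgene (B6.Cg-Tg(SOD1G93A)1Gur/J, called SOD1G93A mice) and 6 were wild-type (WT) C57BL/6J littermates, with 3 females and 3 males of each genotype. The transgene is driven by the human SOD1 promoter and is thus not limited to 1 cell type, and none of the 8 genes was altered by design. Nuclei of 4 mice, 1 for each sex and genotype, were hash-tagged and run together in each of 3 pools (A, B and C), so that each mouse is named here by genotype, sex and pool.

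The table held 14662 nuclei and 206486779 unique molecular identifiers (UMIs), each of which stands for 1 captured RNA molecule, with 548 to 2259 nuclei and 6411715 to 36668441 UMIs per mouse. UMIs were summed per mouse over the nuclei of each deposited cell type and divided by the total of that type, as UMIs per 1000000 UMIs (CPM). Nuclei per type ran from 8800 neurons other than motor neurons, 2165 oligodendrocytes, 1555 astrocytes, 1031 Schwann and meningeal nuclei and 501 endothelial nuclei down to 223 nuclei labelled microglia, 181 oligodendrocyte precursors (OPCs), 93 ependymal nuclei, 67 motor neurons and 46 fibroblasts. Motor neurons numbered 1 to 11 per mouse, and SOD1G93A female C had a single motor neuron nucleus with 27658 UMIs and only 11083 UMIs from OPCs. Between pools, 15 cell barcodes occurred in 2 or more, where they stand for different nuclei.

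Markers were summed per type to check the labels. The motor neuron markers Chat, Prph and Slit3 summed to a mean of 1387 CPM in motor neurons against 90.5 CPM in the other neurons. The label of microglia was not borne out, since these nuclei held only 80.9 CPM of Cx3cr1, Csf1r and Ptprc beside 938 CPM of the neuron markers Rbfox3, Snap25 and Grin1, with a median of 46927 UMIs per nucleus. Schwann and meningeal nuclei held 3610 CPM of the neuron markers, more than the 1450 CPM of neurons themselves, with a median of 1584 UMIs, and their own markers are not reported here, so that their label was neither borne out nor refuted. Both sets are given below by their labels, and levels in them are not read as levels of microglia or of Schwann cells.

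Sod1 counts, to which reads of the human transgene can also align, were higher in SOD1G93A mice. Over all nuclei the genotypes did not overlap, with at most 106 CPM in WT mice and at least 174 CPM in SOD1G93A mice. In neurons, where they overlapped, Sod1 ran from 28.6 to 84.9 CPM in WT mice and from 63.4 to 229.5 CPM in SOD1G93A mice, a log2 fold change of 1.29 (SE 0.13; limma). In motor neurons it ran from 5.58 to 41.5 CPM in WT mice and from 72.3 to 768 CPM in SOD1G93A mice, a log2 fold change of 3.85 (SE 0.32). Of the 9 types in which any of the 8 genes could be tested, Sod1 passed a false discovery rate (FDR) of 0.1 in 7. The exceptions were OPCs (log2 fold change 1.64, FDR 0.165) and ependymal nuclei (1.01, FDR 0.503).

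None of the 8 genes passed an FDR of 0.1 between SOD1G93A and WT mice in any cell type, in 0 of 61 tests by limma. At an unadjusted p under 0.05 there were 3 of 61 (4.92%, against 7.19% of all gene tests in the same types), and the edgeR and DESeq2 tests also called 0 with 3 under 0.05. In astrocytes, 2.29% of all genes were called, in motor neurons 3.07%, in neurons 0.0255%, in oligodendrocytes 0.0475%, in nuclei labelled microglia 0.0759%, in OPCs 0.0411%, in endothelial nuclei 0.0131%, in Schwann and meningeal nuclei 0.036% and in ependymal nuclei 0.0%, so that among 8 genes few or no calls would match the background even in astrocytes and motor neurons. Not every gene could be tested everywhere: Optn fell below the count filter in endothelial, OPC and Schwann and meningeal nuclei, Tbk1 in Schwann and meningeal nuclei, only Nek1 passed in ependymal nuclei and none passed in fibroblasts. The precision of these estimates differed widely between types. In neurons the 95% confidence intervals of all 8 genes lay between −0.30 and 0.25 on the log2 scale, with a median SE of 0.0765, whereas in motor neurons they reached from −0.82 to 1.14, with a median SE of 0.252.

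**Figure D1:**
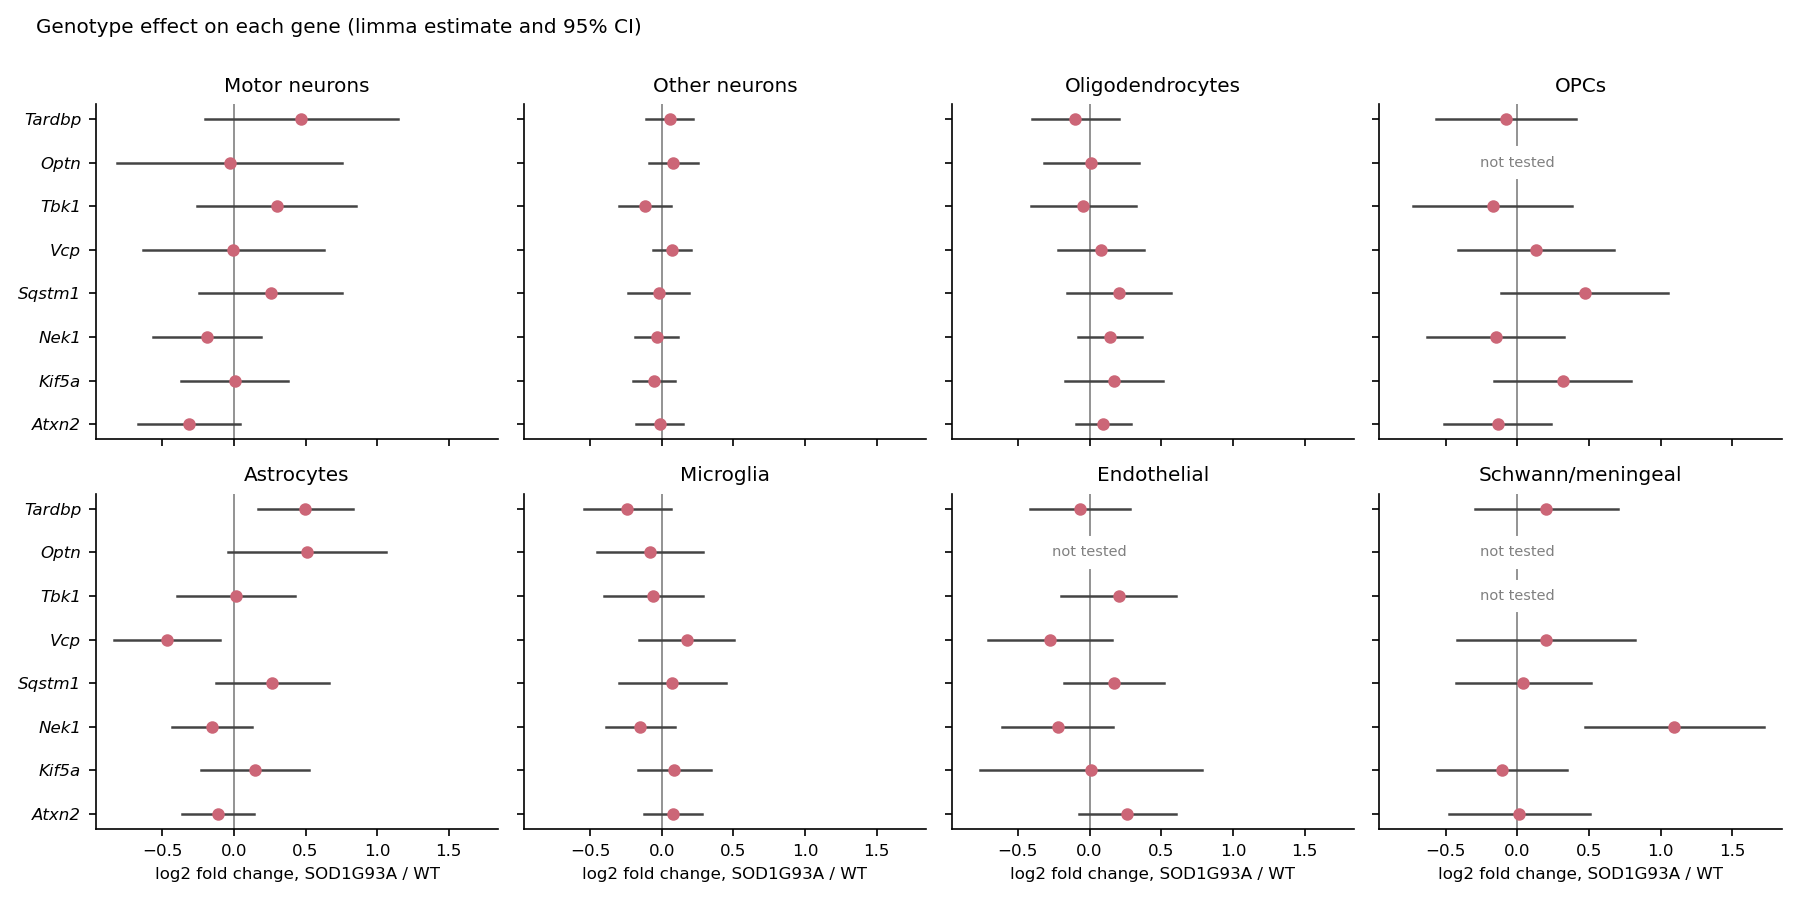
Log2 fold change of each gene between SOD1G93A and WT mice in 8 cell types (x axis; points are limma estimates over both sexes, lines are 95% confidence intervals, and the vertical line marks no difference). Intervals are narrow around 0 in neurons and wide in motor neurons; Tardbp and Vcp in astrocytes and Nek1 in Schwann and meningeal nuclei have intervals that leave out 0, but none passed an FDR of 0.1.

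The levels themselves differed between cell types. Highest, lowest and ordered levels below cover the 8 types with nuclei of all 12 mice. They leave out ependymal nuclei and fibroblasts, with nuclei of only 11 and 10 mice, several of which were at 0 for most genes. Over the motor neuron, neuron, oligodendrocyte and astrocyte types, 4 pairs of types were compared for each gene with an exact two-sided sign-flip permutation test of the within-mouse differences in log2(CPM + 1), whose smallest possible p over 12 mice is 0.000488. With p-values adjusted over all genes of a pair, 16 of 32 differences passed 0.05, 4 of 8 genes in each pair. The types were formed by clustering these same nuclei, so a p describes only the spread over mice. Many genes pass such a test: 33.3% of all genes between motor neurons and other neurons, 75.9% between neurons and oligodendrocytes, 72.7% between neurons and astrocytes and 61.2% between oligodendrocytes and astrocytes. Motor neuron values are given beside the median of all genes, which stood at −0.37 on the log2 scale relative to other neurons. This median includes genes with as little as 5 CPM in either type, and motor neuron sums held 27658 to 651446 UMIs per mouse. The part of counts of 0 in it was not tested. Scaling with TMMwsp factors in place of plain totals moved the medians of all genes in the 4 pairs from −0.37, −0.03, −0.09 and −0.10 to −0.55, 0.11, 0.20 and 0.05, in the order of the pairs just given.

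**Figure D2:**
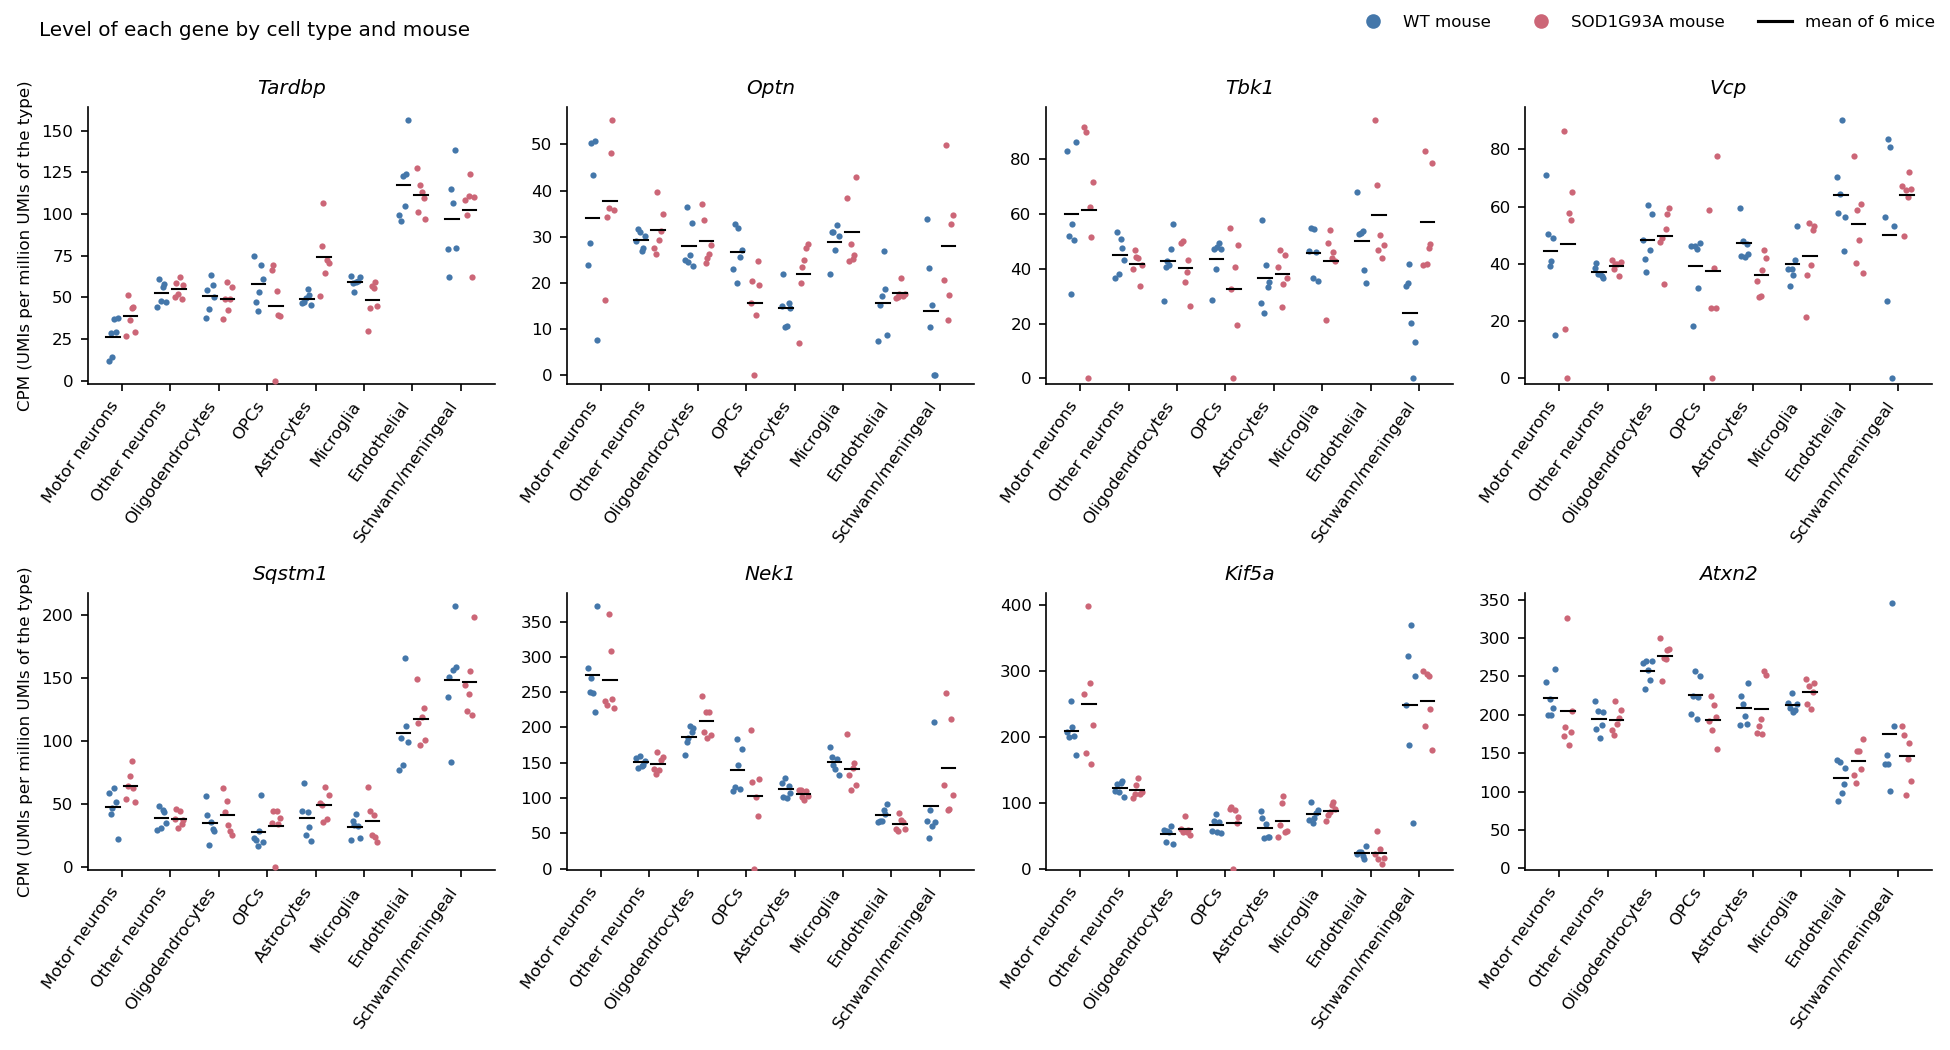
Level of each gene in 8 cell types (y axis, CPM, linear from 0; blue points are WT mice, red points SOD1G93A mice, bars the mean of 6 mice). Nek1 and Kif5a stand higher in motor neurons than in other neurons and Tardbp lower, while the genotypes overlap in every type shown.

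Tardbp encodes TDP-43, an RNA-binding protein that restrains splicing of cryptic exons and limits its own transcript. It lies on the minus strand of chromosome 4 (148612382 to 148627019, GRCm38), where its end overlaps 3118 bases of Masp2 on the opposite strand. Its RefSeq promoter window (GRCm38.p6, minus strand, chr4:148626947-148627246) is shown because Tardbp was the gene nearest to a call in astrocytes, with CpG dinucleotides in capitals.
Tardbp: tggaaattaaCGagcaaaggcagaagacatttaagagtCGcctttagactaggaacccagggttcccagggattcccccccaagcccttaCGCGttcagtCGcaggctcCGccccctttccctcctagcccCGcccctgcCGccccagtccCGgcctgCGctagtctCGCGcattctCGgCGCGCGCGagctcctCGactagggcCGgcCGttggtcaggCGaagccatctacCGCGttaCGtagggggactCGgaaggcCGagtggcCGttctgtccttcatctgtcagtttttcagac
The window holds 27 CpG, against a median of 7 over 32851 mouse promoter windows of the same length. The TATA box TATAAA, the E-box CACGTG, the antioxidant response element TGACNNNGC, the ETS motif CCGGAAG and the CCAAT box were searched on both strands, and this window matched none of them.

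Tardbp was highest in endothelial nuclei, at 114 ± 17.3 CPM (SD, n = 12), and in Schwann and meningeal nuclei, at 99.6 ± 24.0 CPM, which did not differ beyond their spread (exact sign-flip permutation test, adjusted p = 0.121). Astrocytes (61.8 ± 18.3 CPM), neurons (53.7 ± 5.98), nuclei labelled microglia (53.7 ± 9.64), oligodendrocytes (49.9 ± 8.54) and OPCs (51.3 ± 20.4) followed in the order of mean log2(CPM + 1), and no neighbours among them passed the test. Oligodendrocytes and astrocytes, which are not neighbours, differed by −0.27 ± 0.37 log2 (adjusted p = 0.0494, exact permutation test), but the call was kept in only 4 of 12 fits without 1 mouse and the difference was 0.03 in WT mice alone. Motor neurons were lowest, at 32.5 ± 11.7 CPM, although not apart from OPCs (adjusted p = 0.763), of which 1 mouse was at 0. Per mouse, motor neuron Tardbp was 11.9, 28.6 and 13.95 CPM in WT females A, B and C and 36.8, 29.2 and 37.6 CPM in WT males A, B and C. In SOD1G93A mice it was 27.0, 51.5 and 36.2 CPM in the females and 43.3, 44.3 and 29.3 CPM in the males of pools A, B and C. Every mouse had less Tardbp in motor neurons than in its other neurons (12 of 12), with a mean log2 difference of −0.80 ± 0.54 (SD; adjusted p = 0.0041 by the exact permutation test), below the median of all genes.

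Within motor neurons, the 2 genotypes overlapped for Tardbp, and the log2 fold change of 0.47 (SE 0.32, limma FDR 0.516) rested on 127 UMIs in all. WT females A and C, with 2 and 5 UMIs, were the lowest, and SOD1G93A female C rested on 1 UMI. In neurons the estimate was 0.06 (95% confidence interval −0.11 to 0.22) from 8065 UMIs. The sub-types of neurons differed little, from 49.2 CPM in ventral mixed to 57.2 CPM in dorsal excitatory neurons.

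Astrocyte Tardbp came nearest to a call. It was 46.8, 47.0 and 49.8 CPM in WT females and 54.9, 51.6 and 45.4 CPM in WT males of pools A, B and C. In SOD1G93A mice it was 50.9, 80.7 and 107 CPM in females and 64.5, 72.4 and 70.4 CPM in males. The WT mice sat close together (49.3 ± 3.56 CPM), the SOD1G93A mice were spread (74.3 ± 18.7 CPM), and only SOD1G93A female A, with 15 UMIs, lay within the WT range. The log2 fold change was 0.50 (SE 0.16, 95% confidence interval 0.17 to 0.83), higher in 6 of 6 same-sex pairs within pools, but with an FDR of 0.144 by limma. Without SOD1G93A female A it was 0.58 with an FDR of 0.04705, and with a minimum count of 30 in place of 10 it was 0.54 with an FDR of 0.0933. Over all alternatives and left-out mice the estimate ran from 0.42 to 0.58 and the FDR from 0.04705 to 0.3935. In the same astrocytes the neuron markers ran from 328 to 583 CPM in WT and from 371 to 1062 CPM in SOD1G93A mice, and the astrocyte markers Aqp4, Aldh1l1 and Gfap from 867 to 1122 and from 1672 to 2225 CPM. Their part in the Tardbp values was not tested.

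**Figure D3:**
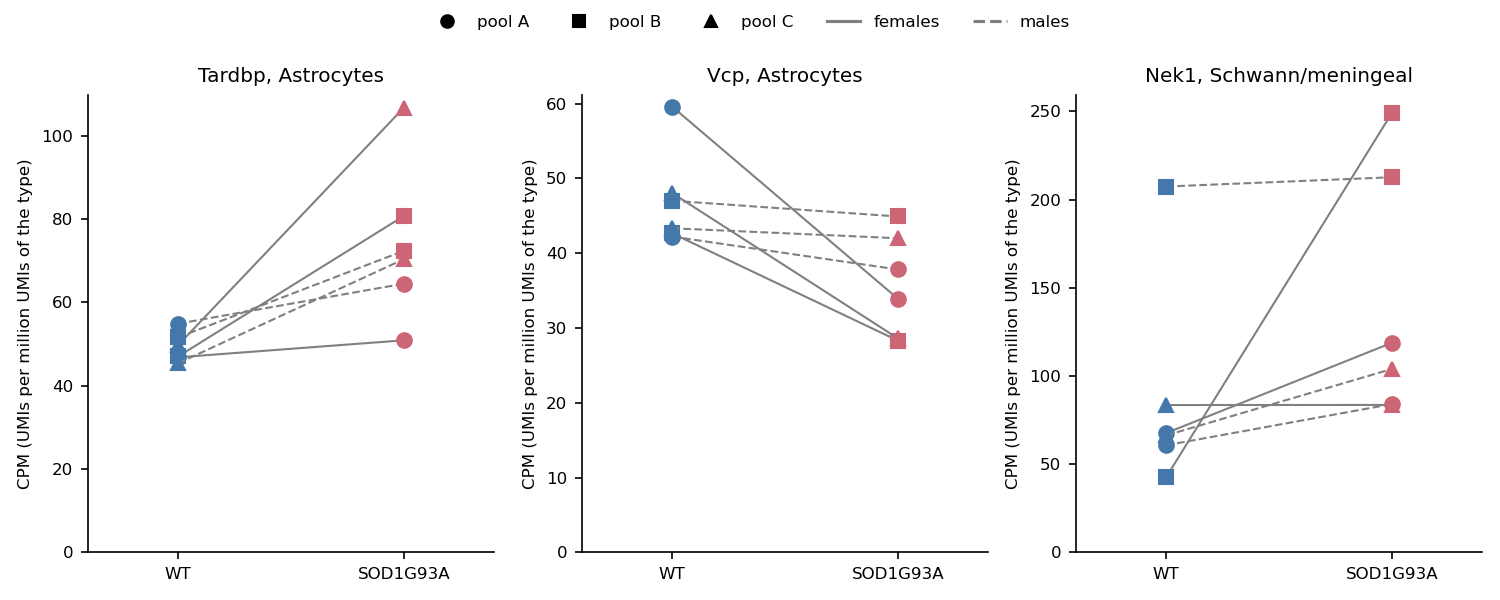
The 3 combinations of gene and cell type with an unadjusted p under 0.05 for genotype (y axis, CPM from 0; each line joins the WT and the SOD1G93A mouse of 1 sex and pool, solid for females and dashed for males). Astrocyte Tardbp is higher in the SOD1G93A mouse of all 6 pairs and astrocyte Vcp lower in all 6, with overlapping groups in both; none of the 3 passed an FDR of 0.1.

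Atxn2 encodes ataxin-2, which binds poly(A)-binding protein, takes part in stress granules and modifies TDP-43 toxicity. The gene spans chromosome 5, 121711337 to 121816493 on the plus strand, and overlaps the antisense transcript Gm16552 and the end of Sh2b3. Oligodendrocytes had the highest level, 267 ± 19.2 CPM (SD, n = 12), from 233 to 300 CPM over the mice, and endothelial nuclei the lowest, 129 ± 24.1 CPM. Nuclei labelled microglia (221 ± 15.0 CPM), motor neurons (213 ± 45.3), OPCs (210 ± 28.8), astrocytes (208 ± 29.2) neurons (194 ± 16.3) and Schwann and meningeal nuclei (161 ± 65.7) lay between. Oligodendrocytes were above neurons in 12 of 12 mice (neurons minus oligodendrocytes −0.46 ± 0.13 log2, adjusted p = 0.000998 by the exact permutation test) and above astrocytes in 12 of 12 (0.37 ± 0.21 log2, adjusted p = 0.00144). Between motor neurons and other neurons the difference was 0.11 ± 0.21 log2 and did not pass (adjusted p = 0.175, exact permutation test).

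For genotype, Atxn2 had its smallest p in motor neurons. WT mice had 243, 200 and 220 CPM (females A, B and C) and 199, 209 and 259 CPM (males). SOD1G93A mice had 173, 184 and 325 CPM (females) and 161, 177 and 205 CPM (males). In 5 of 6 pairs the SOD1G93A mouse was lower, the exception being SOD1G93A female C with its single nucleus and 9 Atxn2 UMIs. The log2 fold change was −0.31 (SE 0.17, 95% confidence interval −0.67 to 0.04, limma FDR 0.389), and over the alternatives and left-out mice it ran from −0.44 to −0.24. In oligodendrocytes and in nuclei labelled microglia the SOD1G93A mouse was higher in 6 of 6 pairs each, but the estimates were small (0.09, SE 0.09, and 0.08, SE 0.10) and far from a call (FDR 1.00 and 0.917 by limma).

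Optn encodes optineurin, an autophagy receptor that binds ubiquitin and LC3. It lies on chromosome 2, 5020642 to 5064051 on the minus strand, around the antisense transcript 4930551O13Rik. Motor neurons (35.8 ± 14.8 CPM, SD, n = 12) and other neurons (30.4 ± 3.76 CPM) had the highest levels, and these did not differ beyond the spread (0.08 ± 0.80 log2, adjusted p = 0.84, exact permutation test). Astrocytes (18.2 ± 7.14 CPM) and endothelial nuclei (16.7 ± 5.07 CPM) had the lowest mean CPM of the 8 types, whereas Schwann and meningeal nuclei (20.8 ± 14.9 CPM, with 2 mice at 0) were last by mean log2(CPM + 1). Neurons exceeded astrocytes in 12 of 12 mice, by 0.81 ± 0.54 log2 (adjusted p = 0.00108, exact permutation test), and oligodendrocytes (28.6 ± 4.99 CPM) exceeded astrocytes in 10 of 12, by 0.71 ± 0.68 log2 (adjusted p = 0.00898).

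The genotype estimate for Optn was largest in astrocytes, where its counts were low. WT mice had 14.9, 21.9 and 10.3 CPM (females A, B and C) and 10.6, 15.5 and 14.4 CPM (males). SOD1G93A mice had 6.79, 19.8 and 23.4 CPM (females) and 24.9, 27.4 and 28.4 CPM (males). All 3 SOD1G93A males and SOD1G93A female C lay above every WT mouse. SOD1G93A female B lay within the WT range, and SOD1G93A female A, which rested on 2 UMIs, lay below it. The log2 fold change was 0.51 (SE 0.27, 95% confidence interval −0.04 to 1.06, limma FDR 0.414). The effect in males minus that in females was 0.87 (SE 0.53, FDR 1 by limma).

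Tbk1 encodes TANK-binding kinase 1, which phosphorylates autophagy receptors and drives type I interferon responses. It lies on chromosome 10, 121546455 to 121586787, minus strand, with no overlapping gene in the annotation. Over the 8 types its mean level ran from 37.4 ± 9.68 CPM in astrocytes (SD, n = 12) to 60.6 ± 26.9 CPM in motor neurons. In the order of mean log2(CPM + 1), from endothelial nuclei to Schwann and meningeal nuclei, no neighbouring types were apart beyond their spread (smallest adjusted p = 0.253, exact permutation test). Neurons (43.4 ± 5.76 CPM) were above astrocytes in 9 of 12 mice by 0.24 ± 0.33 log2 (adjusted p = 0.0466, exact permutation test), a call that was kept in 4 of 12 fits without 1 mouse. Motor neurons ranged from 0 CPM in SOD1G93A female C, where a count of 0 in 1 nucleus of 27658 UMIs allows up to 108 CPM (3 counts, counting error only), to 91.9 CPM in SOD1G93A female A. Without SOD1G93A female C, motor neurons stood above other neurons by 0.55 log2 (adjusted p = 0.0323), against 0.04 ± 1.81 log2 with all mice (adjusted p = 0.996, both by the exact permutation test).

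Tbk1 did not pass for genotype in any type or sub-type of neurons. In neurons as a whole it ran from 33.9 to 53.3 CPM over the 12 mice, with a log2 fold change of −0.12 (SE 0.09, limma FDR 1.00) that ran from −0.16 without SOD1G93A male A to −0.04 without WT female B. In ventral excitatory neurons it was 46.5, 57.5 and 48.3 CPM in WT females and 63.7, 55.6 and 58.2 CPM in WT males. SOD1G93A mice had 36.0, 55.1 and 43.2 CPM (females) and 50.2, 37.9 and 49.6 CPM (males), lower in 6 of 6 pairs with overlapping groups. The log2 fold change was −0.28 (SE 0.12), with an FDR of 0.999 by limma.

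Sqstm1 encodes p62, which links ubiquitinated cargo to LC3 and binds KEAP1. It lies on chromosome 11, 50199366 to 50210827, minus strand, and shares 750 bases with Mrnip on the opposite strand. It was lowest in OPCs (30.6 ± 15.4 CPM, SD, n = 12) and nuclei labelled microglia (34.3 ± 12.6 CPM) and highest in endothelial nuclei (112 ± 25.8 CPM) and Schwann and meningeal nuclei (148 ± 33.1 CPM). Endothelial nuclei ranged from 77.5 to 166 CPM and were above motor neurons in 12 of 12 mice, by 1.01 ± 0.50 log2 (adjusted p = 0.00128, exact permutation test). Between these 2 types the median of all genes stood at 0.678 log2, and 71.0% of all genes passed.

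Motor neurons had 56.3 ± 15.5 CPM of Sqstm1, against 38.9 ± 6.65 CPM in other neurons. In WT mice motor neurons held 59.3, 42.0 and 47.4 CPM (females A, B and C) and 62.8, 52.2 and 22.5 CPM (males). In SOD1G93A mice they held 54.0, 64.3 and 72.3 CPM (females) and 84.3, 62.7 and 52.0 CPM (males). The level exceeded that of other neurons in 10 of 12 mice, by 0.48 ± 0.50 log2 (adjusted p = 0.0335, exact permutation test), but the call was kept in only 3 of 12 fits without 1 mouse, with adjusted p up to 0.06001, and in WT mice alone the difference was 0.24 log2. Between genotypes the estimate was positive in 7 of 8 types, from −0.02 to 0.47 on the log2 scale with a median of 0.19, and no type passed. The types share the same mice, so these signs are not independent. Nek1 had a like run the other way, negative in 7 of 9 types with a median of −0.153. In motor neurons the Sqstm1 estimate was 0.26 (SE 0.24, 95% confidence interval −0.24 to 0.75, limma FDR 0.661), higher in 5 of 6 pairs with overlapping groups.

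Vcp encodes valosin-containing protein, the AAA ATPase that extracts ubiquitinated proteins from complexes and membranes. It lies on chromosome 4, 42979963 to 43000507, minus strand, with 3678 bases shared with 1700022I11Rik on the opposite strand. Its RefSeq promoter window (GRCm38.p6, minus strand, chr4:43000458-43000757) is shown because the astrocyte estimate of Vcp was opposite in sign to that of Tardbp and because its window repeats 1 motif, with CCAAT or its reverse complement ATTGG in capitals.
Vcp: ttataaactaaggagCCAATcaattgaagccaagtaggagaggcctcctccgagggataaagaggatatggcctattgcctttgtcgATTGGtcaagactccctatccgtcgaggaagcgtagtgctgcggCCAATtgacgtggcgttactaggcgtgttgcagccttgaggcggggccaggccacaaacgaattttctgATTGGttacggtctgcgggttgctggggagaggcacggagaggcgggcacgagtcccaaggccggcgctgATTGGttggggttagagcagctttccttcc
The window carries 5 such boxes over both strands. CCAAT occurs in 37.4% of the 32851 windows at least once and in 0.271% at least as many times as in Vcp. The window also matches TATAAA (13.6% of windows) and TGACNNNGC (12.4%), and such matches are descriptions of letters and not of bound sites. Promoter windows were found for 6 of the 8 genes, and apart from a second Atxn2 window with 2 CpG they held 13 (Optn) to 39 (Atxn2) CpG.

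Vcp differed between neurons and oligodendrocytes, and its mean level ran from 38.2 to 58.9 CPM over the types. Endothelial nuclei had 58.9 ± 15.5 CPM (SD, n = 12), Schwann and meningeal nuclei 57.1 ± 23.4, oligodendrocytes 49.1 ± 8.90, motor neurons 45.7 ± 25.0, astrocytes 41.5 ± 8.67, nuclei labelled microglia 41.3 ± 10.1, OPCs 38.3 ± 20.3 and neurons 38.2 ± 2.23 CPM. In the order of mean log2(CPM + 1), in which neighbours were tested, no neighbouring types differed beyond their spread. Neurons were below oligodendrocytes in 11 of 12 mice (−0.33 ± 0.30 log2, adjusted p = 0.00609, exact permutation test), although with TMMwsp scaling the difference of −0.21 did not pass (adjusted p = 0.0626). Neuron values of all 12 mice fell between 34.9 and 41.2 CPM, which left little room for a genotype difference there (0.07, 95% confidence interval −0.06 to 0.20).

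In astrocytes the direction of Vcp was opposite to that of Tardbp. WT mice had 59.6, 42.7 and 48.0 CPM (females A, B and C) and 42.2, 47.0 and 43.3 CPM (males). SOD1G93A mice had 33.9, 28.3 and 28.6 CPM (females) and 37.8, 44.9 and 42.0 CPM (males). The SOD1G93A mouse was lower in 6 of 6 pairs, with the males nearer to their WT partners than the females. The groups overlapped only through SOD1G93A male B, at 44.9 CPM, and every other SOD1G93A mouse lay below every WT mouse. The log2 fold change was −0.46 (SE 0.18, 95% confidence interval −0.84 to −0.09), with an FDR of 0.235 by limma. Over the alternatives and left-out mice it ran from −0.59 to −0.40, and the FDR from 0.112 to 0.548. The marker levels given for astrocyte Tardbp moved with genotype in these same sums, and their part was not tested.

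Kif5a encodes a neuronal heavy chain of kinesin-1, with the paralogs Kif5b, found in most cells, and Kif5c. It lies on chromosome 10, 127225696 to 127263348, minus strand, with no overlapping gene. Motor neurons had 229 ± 65.0 CPM (SD, n = 12), other neurons 121 ± 9.97, nuclei labelled microglia 85.0 ± 10.8, OPCs 67.8 ± 25.2, astrocytes 67.3 ± 21.7, oligodendrocytes 56.2 ± 10.6 and endothelial nuclei 23.9 ± 12.8 CPM. Schwann and meningeal nuclei had 251 ± 79.9 CPM, in the same nuclei that held 3610 CPM of neuron markers, and their part in that value was not tested. Per mouse, WT motor neurons had 208, 200 and 254 CPM (females A, B and C) and 214, 201 and 173 CPM (males). SOD1G93A motor neurons had 265, 176 and 398 CPM (females) and 282, 159 and 218 CPM (males), a range that encloses the WT values, with the highest from the single nucleus of SOD1G93A female C. Motor neurons were above other neurons in 12 of 12 mice by 0.88 ± 0.34 log2 (adjusted p = 0.0041, exact permutation test). Neurons in turn were above oligodendrocytes in 12 of 12 by 1.11 ± 0.27 log2 (adjusted p = 0.000998, exact permutation test) and above astrocytes in 12 of 12 by 0.89 ± 0.38 log2 (adjusted p = 0.00108).

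The motor neurons were also the deepest nuclei, with a median of 53245 UMIs each against 12865 in other neurons. After thinning every nucleus to 2000 UMIs, 34.5% of motor neurons and 20.5% of other neurons were expected to hold a Kif5a UMI, against 5.38% of endothelial nuclei, which are not neurons and in which Snap25 was expected in 27.7%. Before thinning, all 67 motor neurons held one, as did 70.7% of other neurons and 17.0% of endothelial nuclei, whose median was 6963 UMIs. The thinned share was 9.93% in oligodendrocytes, 10.2% in OPCs, 10.6% in astrocytes, 14.6% in nuclei labelled microglia and 47.8% in Schwann and meningeal nuclei, of which 668 of 1031 were too shallow to thin. Both neuron shares lay above each of these except that of Schwann and meningeal nuclei. Thinning left out 97 neurons, 17 endothelial nuclei and 0 motor neurons with fewer UMIs.

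The genotype estimate for Kif5a was 0.01 in motor neurons (SE 0.18, 95% confidence interval −0.37 to 0.38) and −0.05 in neurons (SE 0.07, −0.20 to 0.09). Levels of the 3 heavy chains are given undivided and per kilobase of gene, since whether the counts scale with gene length was not tested. Undivided, motor neurons had 413 CPM of Kif5c, 229 of Kif5a and 157 of Kif5b. Neurons had 180, 121 and 106 CPM in that order. The order of Kif5a and Kif5c thus depends on the division. Per kilobase of gene, neurons had 3.20 CPM of Kif5a, 2.58 of Kif5b and 1.16 of Kif5c, and motor neurons 6.08, 3.81 and 2.66 in the same order. Kif5b was higher in endothelial nuclei (10.7 CPM per kilobase) than in motor neurons (3.81) or neurons (2.58), whereas Kif5c fell from motor neurons to neurons to endothelial nuclei (2.66, 1.16 and 0.166) as Kif5a did (6.08, 3.20 and 0.633). Neither paralog passed for genotype in motor neurons or astrocytes: astrocyte Kif5b and Kif5c had log2 fold changes of 0.25 (SE 0.13, limma FDR 0.425) and 0.29 (SE 0.15, FDR 0.399).

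**Figure D4:**
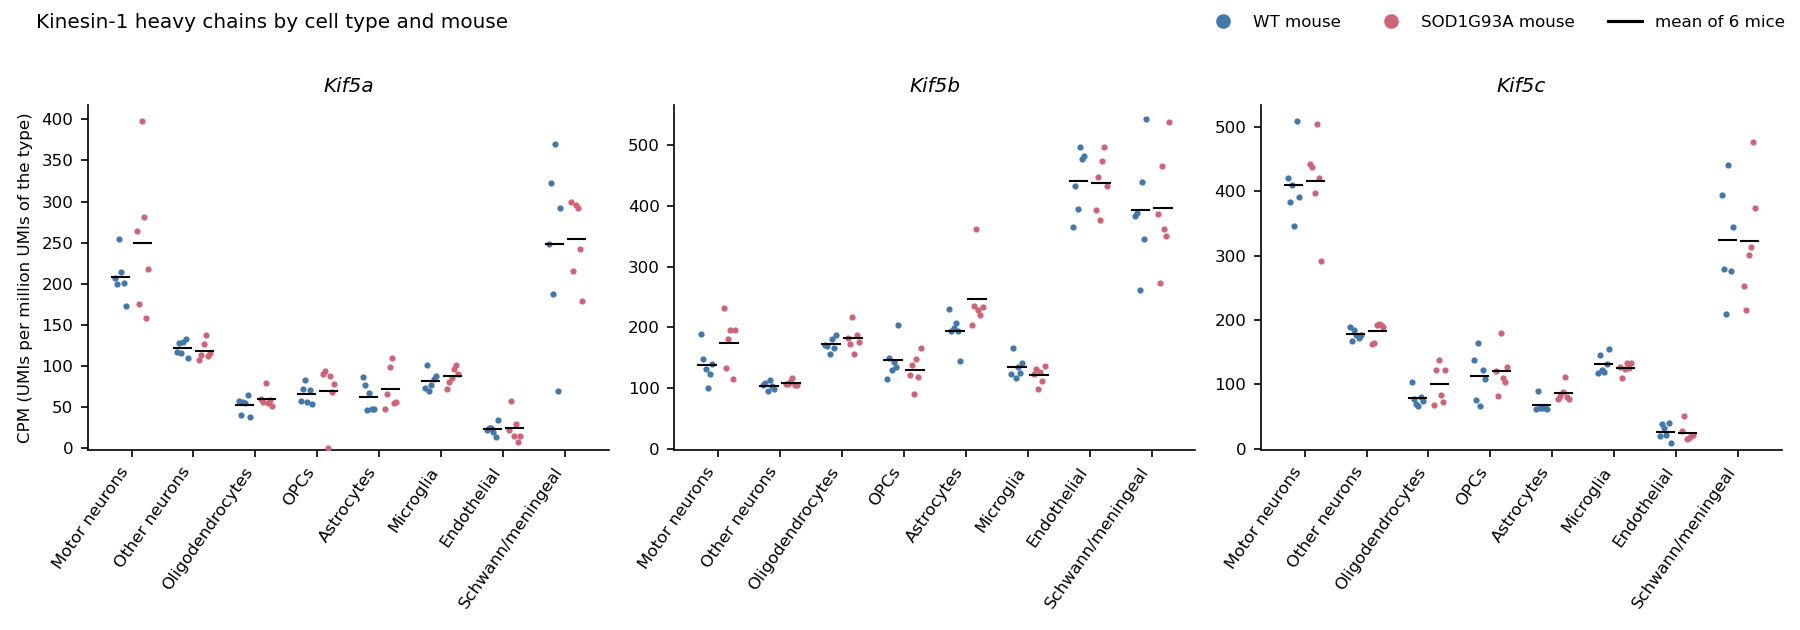
Levels of the kinesin-1 heavy chains Kif5a, Kif5b and Kif5c in 8 cell types (y axis, CPM from 0, not divided by length; blue points are WT mice, red points SOD1G93A mice, bars the mean of 6 mice). Kif5a and Kif5c are highest in motor neurons and in Schwann and meningeal nuclei and lowest in endothelial nuclei, and Kif5b is highest in endothelial nuclei and in Schwann and meningeal nuclei.

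Nek1 encodes a NIMA-related kinase. It is the longest of the 8 genes, on chromosome 8 from 60993195 to 61131346, plus strand, and overlaps 13742 bases of the antisense transcript Gm16178. Long genes give more intronic reads in nuclei, so its CPM is compared only between types. Whether the intronic share differs between types was not tested. The shortest genes, Sqstm1 and Tardbp (11.5 and 14.6 kilobases), were highest in endothelial and in Schwann and meningeal nuclei. The longest, Nek1 and Atxn2 (138 and 105 kilobases), were lowest in endothelial nuclei. Motor neurons had 271 ± 51.1 CPM (SD, n = 12), oligodendrocytes 198 ± 22.4, neurons 150 ± 9.47, nuclei labelled microglia 146 ± 22.1, OPCs 121 ± 52.3, Schwann and meningeal nuclei 115 ± 68.7, astrocytes 109 ± 9.43 and endothelial nuclei 69.4 ± 11.5 CPM. Ependymal nuclei, which are ciliated and stand outside these 8 types, had a higher mean Nek1 level of 369 ± 262 CPM (SD, n = 11), from 86 UMIs in 93 nuclei. It ranged from 0 in 2 mice to 774 CPM with a median of 322 CPM, a spread that encloses the motor neuron values, and was not tested against other types. In motor neurons WT mice had 285, 250 and 271 CPM (females A, B and C) and 249, 223 and 372 CPM (males). SOD1G93A mice had 238, 232 and 362 CPM (females) and 308, 240 and 228 CPM (males), all within the WT range.

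All 4 fixed pairs of types differed for Nek1, which held for no other gene of the 8. Motor neurons exceeded other neurons in 12 of 12 mice by 0.83 ± 0.23 log2 (adjusted p = 0.0041, exact permutation test). Oligodendrocytes exceeded neurons in 12 of 12 (neurons minus oligodendrocytes −0.40 ± 0.19 log2, adjusted p = 0.000998, exact permutation test) and astrocytes in 12 of 12 (0.85 ± 0.22 log2, adjusted p = 0.00144). Neurons exceeded astrocytes in 12 of 12 by 0.45 ± 0.13 log2 (adjusted p = 0.00108, exact permutation test). These calls were kept in all 12 fits without 1 mouse.

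The smallest genotype p of any gene was that of Nek1 in Schwann and meningeal nuclei, the type with more neuron marker RNA than neurons. WT mice had 67.7, 42.7 and 83.5 CPM (females A, B and C) and 60.8, 207 and 66.3 CPM (males), each from 3 to 12 UMIs. SOD1G93A mice had 119, 249 and 83.6 CPM (females) and 84.1, 213 and 104 CPM (males), from 23 to 97 UMIs. The value of 207 CPM came from WT male B with 3 UMIs in 13 nuclei. All 6 pairs were higher in the SOD1G93A mouse, with a log2 fold change of 1.09 (SE 0.31, 95% confidence interval 0.47 to 1.72), but the FDR was 0.6 by limma and the groups overlapped. Without WT female C it was 1.33 with an FDR of 0.0945, and the lowest estimate on leaving out 1 mouse was 0.38, without WT female B.

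Among the 9 sub-types of neurons, none of 71 genotype tests passed (limma FDR of 0.812 or more), where 0.0252% of all gene tests did. At an unadjusted p under 0.05 there were 2 of 71 (2.82%, against 4.54% of all gene tests), with 1 by edgeR and 0 by DESeq2. These were Tbk1 in ventral excitatory neurons (above) and Optn in ventral cholinergic neurons, with a log2 fold change of 0.45 (SE 0.21, FDR 0.996) between 21.0 to 35.6 CPM in WT and 26.6 to 45.0 CPM in SOD1G93A mice.

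Levels followed the position of the sub-types in several genes, given as a description without a test. Kif5a was 94.6 ± 5.66 CPM in dorsal excitatory and 105 ± 13.7 CPM in dorsal inhibitory neurons (SD, n = 12) but 145 ± 12.0, 158 ± 12.7 and 150 ± 26.6 CPM in ventral excitatory, ventral inhibitory and ventral cholinergic neurons. The ranges over mice of dorsal excitatory (85.8 to 102 CPM) and ventral excitatory neurons (130 to 166 CPM) did not overlap. Nek1 rose likewise from 118 ± 10.8 CPM in dorsal excitatory (100 to 137 CPM) to 178 ± 13.3 CPM in ventral excitatory neurons (160 to 204 CPM). Optn was 23.3 ± 5.08 and 21.7 ± 3.47 CPM in the dorsal and 33.8 ± 8.61 and 41.0 ± 9.58 CPM in the ventral excitatory and inhibitory neurons, with overlapping mice. Tbk1 was 37.0 ± 7.38 and 41.0 ± 7.23 CPM in the dorsal and 50.2 ± 8.39 and 50.2 ± 11.7 CPM in the ventral excitatory and inhibitory neurons, also with overlapping mice. Atxn2 differed less, from 169 ± 20.2 CPM in dorsal excitatory to 209 ± 15.6 CPM in ventral excitatory neurons. Vcp and Sqstm1 had no such step between excitatory neurons: Vcp was 37.6 ± 4.39 and 37.6 ± 8.17 CPM, and Sqstm1 38.5 ± 8.91 and 37.6 ± 7.18 CPM, in dorsal and ventral excitatory neurons. In ventral cholinergic neurons their means were higher, at 43.7 ± 8.83 CPM of Vcp and 50.4 ± 14.3 CPM of Sqstm1, with overlapping mice. Ventral nuclei were deeper, with a median of 19812 UMIs in ventral excitatory against 10188 in dorsal excitatory neurons. The part of depth in these differences was not tested.

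**Figure D5:**
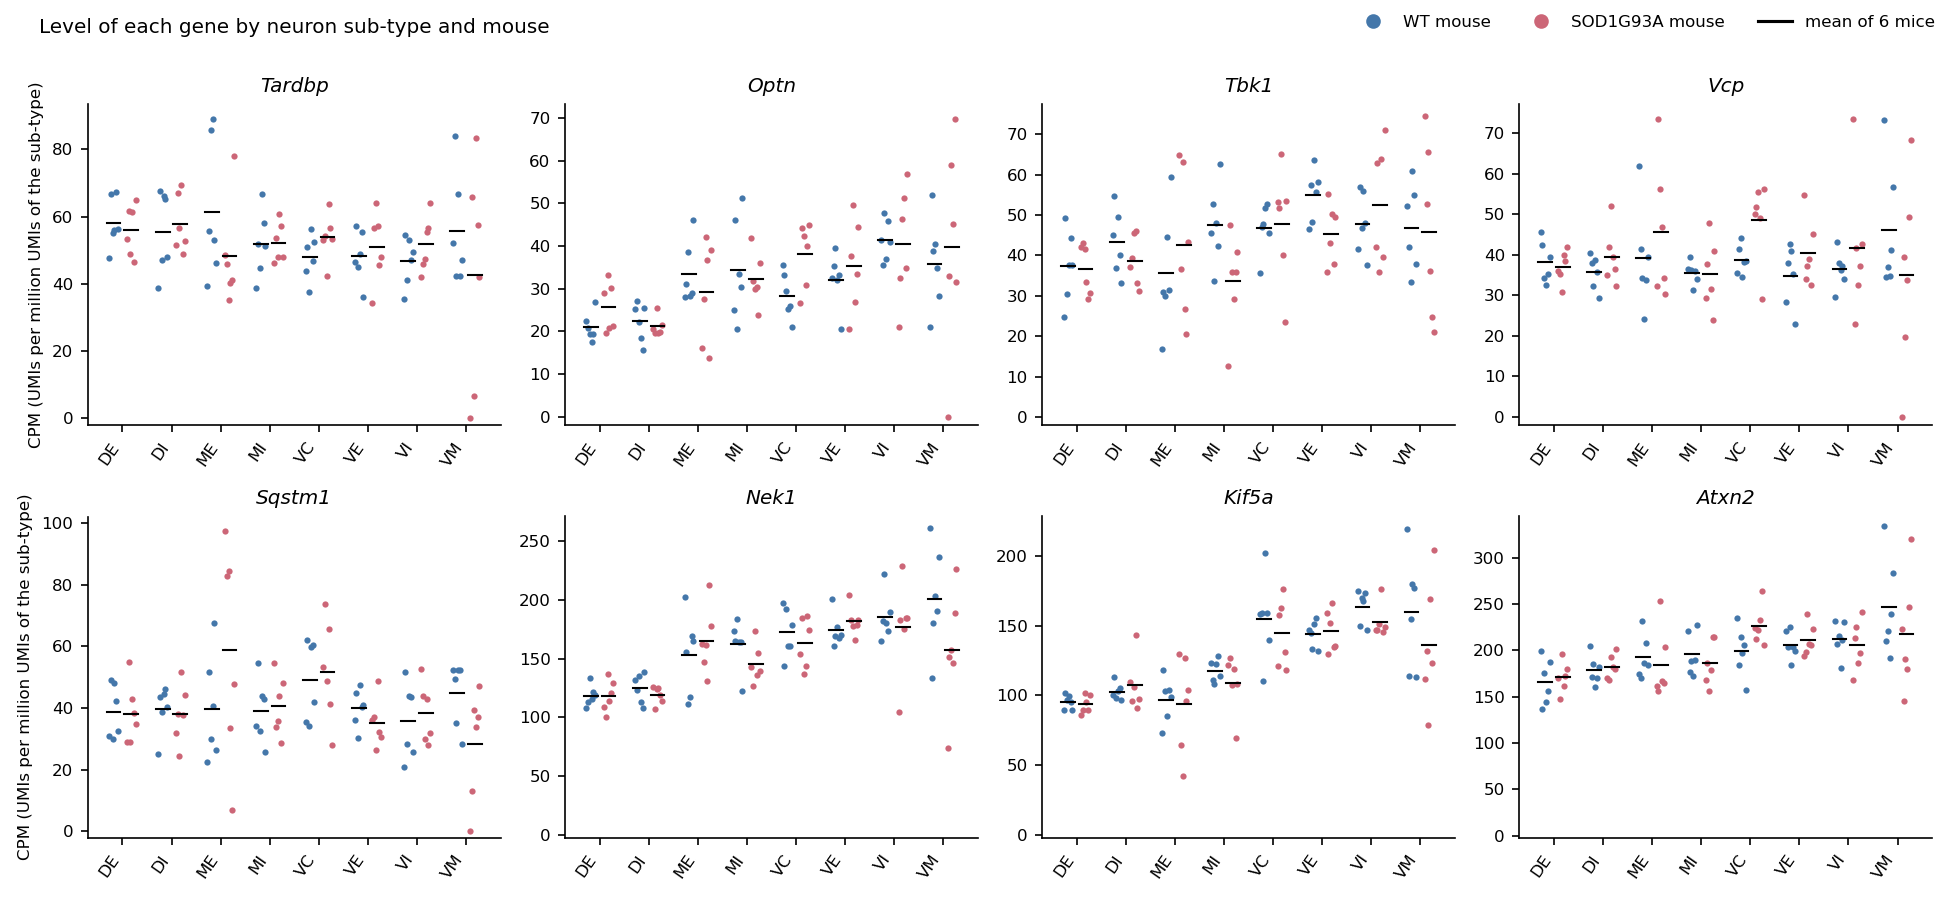
Level of each gene in 8 named sub-types of neurons (y axis, CPM from 0; DE, DI: dorsal excitatory and inhibitory; ME, MI: mid; VC: ventral cholinergic; VE, VI: ventral excitatory and inhibitory; VM: ventral mixed; blue points are WT mice, red points SOD1G93A mice, bars the mean of 6 mice). Kif5a and Nek1 are lower in dorsal than in ventral sub-types. Tardbp, Vcp and Sqstm1 show no rise from dorsal to ventral excitatory neurons, and Sqstm1 has its highest means in ventral cholinergic and mid excitatory neurons.

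Sex was compared in the same fits. None of 61 tests of females against males passed an FDR of 0.1 by limma (0.159% of all gene tests did), with 4 of 61 at an unadjusted p under 0.05 (6.56%, against 5.54% of all gene tests; 4 by edgeR, 1 by DESeq2). These were Sqstm1 (log2 female minus male 0.50, SE 0.17, FDR 0.915) and Vcp (−0.33, SE 0.14, FDR 0.915) in oligodendrocytes, Tbk1 in endothelial nuclei (0.47, SE 0.19, FDR 0.821) and Vcp in nuclei labelled microglia (−0.37, SE 0.16, FDR 0.763). The sub-types gave 0 of 71 calls for sex, where 0.0928% of all gene tests were called, with 1 at an unadjusted p under 0.05 (1.41%, against 4.73% of all gene tests).

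The genotype effect in males minus that in females passed in 0 of 61 tests over the cell types by limma (0.00585% of all gene tests), with 0 at an unadjusted p under 0.05 by limma, edgeR and DESeq2 (3.12% of all gene tests by limma). In the sub-types of neurons it passed in 0 of 71 (0.0782% of all gene tests), with 6 at an unadjusted p under 0.05 (8.45%, against 4.08% of all gene tests). Of these 6, 3 were Tbk1, chosen for mention after the values were seen, with negative values in dorsal excitatory (−0.55, SE 0.24), ventral cholinergic (−0.94, SE 0.38) and ventral mixed neurons (−1.57, SE 0.54) and FDR of 0.993 to 0.999. The ventral mixed value includes SOD1G93A female A with 1 nucleus and 2 Tbk1 UMIs. The other three were Vcp in dorsal excitatory (0.46, SE 0.21), Sqstm1 in mid excitatory (−1.69, SE 0.70) and Tardbp in ventral mixed neurons (1.60, SE 0.73). In dorsal excitatory neurons Tbk1 was 24.8, 49.3 and 30.4 CPM in WT females and 37.7, 44.4 and 37.5 CPM in WT males. SOD1G93A females had 42.0, 43.2 and 41.7 CPM and SOD1G93A males 33.4, 29.2 and 30.6 CPM, so that all 3 SOD1G93A males lay below the SOD1G93A females and below the WT males. In dorsal inhibitory (0.09, SE 0.26) and ventral inhibitory neurons (0.24, SE 0.36) the estimate had the other sign, and in neurons as a whole it was −0.26 (SE 0.17).

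Partners of these genes were taken from fixed lists. Of 25 RNA-binding and stress granule proteins, which include Tardbp and Atxn2, 24 could be tested in astrocytes and 2 rose there by limma: Elavl2 and Elavl3, Hu family proteins that stabilise AU-rich transcripts. Of all astrocyte genes, 2.29% were called in either direction. The median log2 fold change of the 24 was 0.17, against 0.02 over all genes in astrocytes. Elavl2 ran from 40.8 to 84.2 CPM in WT and from 74.6 to 160 CPM in SOD1G93A astrocytes, with a log2 fold change of 0.81 (SE 0.19, FDR 0.0395). Elavl3 ran from 25.2 to 42.9 CPM in WT and from 42.5 to 85.9 CPM in SOD1G93A astrocytes, with a log2 fold change of 0.76 (SE 0.20, FDR 0.0584). In neurons Elavl2 and Elavl3 stood at 298 and 110 CPM, and in oligodendrocytes at 79.3 and 180.4 CPM. The neuron markers in these astrocytes ran from 328 to 583 CPM in WT and from 371 to 1062 CPM in SOD1G93A mice. Their part was not tested.

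The other lists gave 0 calls. In astrocytes, where 2.29% of all genes were called, these were 0 of 5 tested kinesin-1 subunits (median 0.25), 0 of 19 autophagy receptors and TBK1 partners (median 0.06), 0 of 21 VCP cofactors (median −0.05), 0 of 5 NEK kinases (median −0.08) and 0 of 19 other ALS genes (median 0.11). In motor neurons, where 3.07% of all genes were called, it was 0 of 5, 0 of 9, 0 of 13, 0 of 3 and 0 of 12 in the same order, and 0 of 20 RNA-binding proteins (medians 0.02, 0.09, 0.11, 0.57, 0.04 and 0.16). With unadjusted p under 0.05 there were, in astrocytes, 7 of 24 RNA-binding proteins (Tardbp among them), 4 of 21 VCP cofactors, 3 of 19 autophagy genes and 4 of 19 other ALS genes. In motor neurons there were 2 of 13 VCP cofactors, 2 of 3 NEK kinases and 2 of 12 other ALS genes. Such counts for the remaining lists are not given here. Over all genes the share was 13.6% in astrocytes and 15.9% in motor neurons. The paper states that, apart from SOD1, it found no gene that causes ALS to differ between genotypes. It reports other genes that it ties to ALS as changed. These were Cdh22 (lower) and Cav2 (higher) in SOD1G93A astrocytes and Epha3 (lower) in SOD1G93A motor neurons. Their estimates in the present fits are not given here.

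Genes with the most similar pattern were sought by the correlation of mean log2(CPM + 1) over WT mice across 16 types and sub-types, among 10807 genes. This is a description over points that share mice and depth. For Kif5a the likest gene was Kif5c (r = 0.974), followed by Cacng2 (0.957) and the potassium channel gene Kcnh2 (0.952). For Tardbp they were Serbp1, Ddrgk1 and Vti1b (0.947, 0.945 and 0.932), for Optn Lmbr1, 3110021N24Rik and Capn15 (0.967, 0.957 and 0.948), and for Tbk1 4921511C10Rik, the autophagy gene Atg7 and the proteasome subunit gene Psmd1 (0.958, 0.954 and 0.949). For Vcp they were Ezh1, Ccdc28b and Sept10 (0.929 each), for Sqstm1 Trappc1, Fam8a1 and Trove2 (0.956, 0.947 and 0.942), for Nek1 Gm15446, Ppp1r12b and Gm47134 (0.913, 0.912 and 0.907), and for Atxn2 Pcdh9, Myo18a and Acss2 (0.931, 0.921 and 0.919). Among the 8 genes themselves the correlation was highest between Optn and Nek1 (0.82) and lowest between Tardbp and Nek1 (−0.885).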

How the data were processed

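Nuclei of lumbar cord had been run on the 10x platform in 3 hash-tagged pools. Per the submitters' processing notes and the study's methods, the authors made the deposited UMI counts per nucleus and gene with bcl2fastq 2.20.0.422, Cell Ranger 3.1 and STAR 2.5.1b on a mouse (mm10) reference that includes introns, and removed nuclei with few genes or a high mitochondrial share, mitochondrial genes and droplets with hashtags of more than 1 mouse. No doublet caller was run here. Some marker sums are not reported here. Cell types and sub-types are the deposited ones, and each nucleus was assigned to its mouse by the deposited pool, sex and genotype.

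Counts were summed per mouse and type. Genotype, sex and their interaction were fitted with limma 3.58.1 (voom, TMMwsp from edgeR 4.0.16, minimum count 10, sex-by-genotype groups plus pool as a block, robust eBayes), with Benjamini-Hochberg FDR over all genes of a type and a threshold of 0.1. The pool pairs the mice by design: each holds 1 mouse per sex and genotype. edgeR, DESeq2 1.42.0, a minimum count of 30, no pool term and leaving out each mouse were alternatives. Levels between types were compared as log2(CPM + 1) within mice with an exact two-sided sign-flip permutation test. Their p-values were adjusted over all genes of a pair with at least 5 CPM in either type, instead of over pairs and members as first planned, a change made after seeing the data. Depth differed between types, and its part in the precision was not tested: motor neuron sums held 27658 to 651446 UMIs per mouse and neuron sums 4389167 to 27096108. Fits were tested on simulated data. The 8 genes, the gene lists and the named results were chosen with earlier results of these data known. All 8 genes were named, together with called list members, the kinesin-1 paralogs and the 3 genes of most similar pattern. R 4.3.3 and Python 3.11.15 were used.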

Additional observations from a re-analysis of the deposited data

Results flagged for a closer look

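Within each genotype and type, 128 groups of 6 mice were examined for a single mouse that stood far from the other five, which chance gives in about 1 of 20 groups, and 10 were found. SOD1G93A female C, with few OPC nuclei, held 0.0 CPM of Sqstm1 in OPCs (nearest 34.5) and 0.0 CPM of Kif5a (nearest 68.9), where a count of 0 in 11083 UMIs allows up to 271 CPM. In the same mouse Atxn2 was 325.0 CPM in its single motor neuron nucleus (nearest 205.0) and Kif5a was 79.1 CPM in oligodendrocytes (nearest 60.1). WT male B, with 13 Schwann and meningeal nuclei, held 207.0 CPM of Nek1 (nearest 83.5) and 346.0 CPM of Atxn2 there (nearest 186.0), and 57.2 CPM of Sqstm1 in OPCs (nearest 29.2). WT female A held 59.6 CPM of Vcp in astrocytes (nearest 48.0). SOD1G93A female A held 21.3 CPM of Tbk1 in nuclei labelled microglia (nearest 42.9). SOD1G93A male A held 21.0 CPM of Optn in endothelial nuclei (nearest 17.6).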

How the results depend on the processing

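The count of 0 genotype calls over the cell types became 1 with a minimum count of 30 (astrocyte Tardbp, 0.538, FDR 0.0933 by limma) and ran from 0 to 1 on leaving out 1 mouse, with astrocyte Tardbp from 0.421 to 0.577 (called without SOD1G93A female A) and Schwann and meningeal Nek1 from 0.379 to 1.33 (called without WT female C). Without the pool as a block, 0 of 61 passed and 4 had an unadjusted p under 0.05. The number of level differences called was 16. With calls gained and lost both counted it was 13 to 16 without 1 mouse and 18 with TMMwsp scaling. It was 14 with the adjustment over pairs and members that was first planned (the one over all genes was chosen after seeing the data). In WT mice only it was 4, where 6 mice allow no exact p below 0.03125. There 63.3% of all genes were called between neurons and oligodendrocytes and 0.0% in each of the other pairs, so the count of 4 is not a result about these genes. None of the differences whose sign turned had been called, except Tardbp between oligodendrocytes and astrocytes. With TMMwsp scaling, neurons minus astrocytes turned to 0.116 for Tardbp, 0.18 for Vcp, 0.149 for Sqstm1 and 0.185 for Atxn2, and motor neurons minus neurons to −0.066 for Optn, −0.0829 for Tbk1 and −0.0341 for Atxn2. In WT mice only, neurons minus astrocytes turned to 0.0809 for Tardbp and 0.082 for Sqstm1, oligodendrocytes minus astrocytes to 0.0295 for Tardbp, and motor neurons minus neurons to −0.0147 for Optn and 0.124 for Vcp. On leaving out 1 mouse, motor neurons minus neurons ran from −0.061 to 0.546 for Tbk1 and from −0.357 to 0.225 for Vcp, both highest without SOD1G93A female C. The causes were not tested. Motor neuron values rest on 67 nuclei, and differences within their intervals were not detectable at this depth.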
